A study of Mus musculus with 16 samples.

Results

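The genes described here are 42 genes of the cell cycle, DNA replication and growth arrest, set against the 15908 genes tested in mouse liver. They were taken by symbol from the platform annotation of Affymetrix whole-transcript arrays, with the probe set of highest mean over the 16 arrays standing for a gene. Of the 42 genes, 40 had a probe set with a single symbol and 39 passed the filter on dim probe sets and were tested. The replication origin gene Orc1 was below the filter, at 4.59 to 4.90 on the log2 scale over the 16 arrays, and has no test. Cdkn1a, which encodes the CDK inhibitor p21, lies on a probe set that carries several symbols and is not reported. Ccnb1, which encodes cyclin B1, has no probe set named for it here and so no level, and enters only the promoter counts.

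The study asked how a substitution in the p65 subunit of NF-kB alters the liver's response to lipopolysaccharide (LPS), a bacterial cell wall component sensed by TLR4. There were 4 groups of 4 male livers, namely S534A with 1 mg/kg LPS, S534A untreated, wild type (WT) with 1 mg/kg LPS and WT untreated. S534A mice carry a knock-in in exon 10 of the p65 gene that turns a serine codon into an alanine codon in every cell, and were bred to homozygosity after backcrossing to C57Bl6/J. Their resistance cassette had been removed with FLPe recombinase. WT mice were C57Bl6/J, and the labels do not call them littermates. The labels give neither ages nor the time from LPS to collection, and they name no vehicle group, so handling and collection time cannot be told apart from LPS. The labels do not state that each liver of a group is from its own animal, and the p-values therefore reflect only how much these 16 samples vary, part of which may be technical. The series text names a dose for the untreated S534A group too, and the sample titles, which call it untreated, were followed.

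A cell prepares to divide by loading the MCM helicase onto replication origins during G1, with the help of ORC, Cdc6 and Cdt1. D-type cyclins with Cdk4 or Cdk6, and then cyclin E with Cdk2, inactivate the retinoblastoma protein and release E2F factors, which switch on genes for DNA synthesis. Inhibitors such as p27 and stress-induced proteins such as the Gadd45 family hold this sequence back. Most hepatocytes of an adult liver rest outside the cycle, can re-enter it after injury, and are often polyploid.

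All levels below are log2 values, a change is the LPS-treated mean minus the untreated mean on that scale, and ± is the standard error of the limma fit with n = 4 per group. Adjusted p-values are Benjamini-Hochberg values over the 15908 genes, and a gene rose or fell where that value was under 0.05. Array medians lay between 6.25 and 6.42. The targeted gene Rela, which encodes p65, rose after LPS by 1.41 ± 0.08 in S534A livers and 1.22 ± 0.08 in WT livers, which does not check the genotype labels because the allele is a point change. The hepatocyte markers averaged 13.55 to 13.71 in every array, Alb and Apoa1 among them. Clock genes separated the untreated livers. A clock score was taken as the Arntl level subtracted from the mean level of Tef, Dbp and the 3 Period genes Per1, Per2 and Per3. It was 3.33, 3.41, −2.55 and 0.96 in untreated S534A arrays 1 to 4 and −1.70, 3.43, −1.77 and 3.47 in untreated WT arrays 1 to 4. After LPS it ran from −0.70 to 1.63 in S534A and from −0.01 to 1.53 in WT. Untreated S534A array 3 and untreated WT arrays 1 and 3 therefore stand apart, and results that rest on them are given with and without them. Fits without them hold fewer than 4 arrays in each untreated group. The untreated WT arrays left, at scores of 3.43 and 3.47, lie above all LPS-treated arrays, so in WT clock score and LPS cannot be told apart in those fits.

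After LPS more of the tested cell cycle genes fell than rose in each genotype, as was so over all genes tested. The stress genes Gadd45b and Gadd45g had the largest rises, followed by E2f8. In S534A livers 21 of 39 fell, against 31.2% of all genes tested, and 7 rose, against 14.2% of all genes tested, which makes 28 called in either direction, against 45.4%. In WT livers 20 of 39 fell, against 29.9% of all genes tested, and 7 rose, against 14.9% of all genes tested, which makes 27 called, against 44.9%. The median change of the 39 genes was −0.35 in S534A and −0.29 in WT, beside −0.03 and −0.05 for all genes. The same 19 genes fell in both genotypes and the same 6 rose in both, Mcm4, Mki67, E2f8, Plk3, Gadd45b and Gadd45g. The share of all genes tested that was called alike in both genotypes was not counted, so this overlap is not read as particular to these genes. Rrm2, Ccna2 and Gadd45a were called in S534A and not in WT, and Ccnd2 and Ccnd3 in WT and not in S534A, and none of these 5 was called in the test of the difference between genotypes. For 9 genes neither genotype passed. Centring each array on its median shifted the change of all genes by −0.10 in both genotypes, and with it Mcm4 in both genotypes and Mki67 in S534A no longer passed (adjusted p = 0.208 and 0.109 for Mcm4 in S534A and WT, and 0.173 for Mki67), while Gins2 passed as lower in both (0.0114 and 0.0192) and Cdk6 in S534A (0.0187). The centred split over all genes was 1703 higher and 6231 lower in S534A and 1838 higher and 6493 lower in WT, in place of 2258 and 4967 in S534A and 2377 and 4762 in WT.

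**Figure D1:**
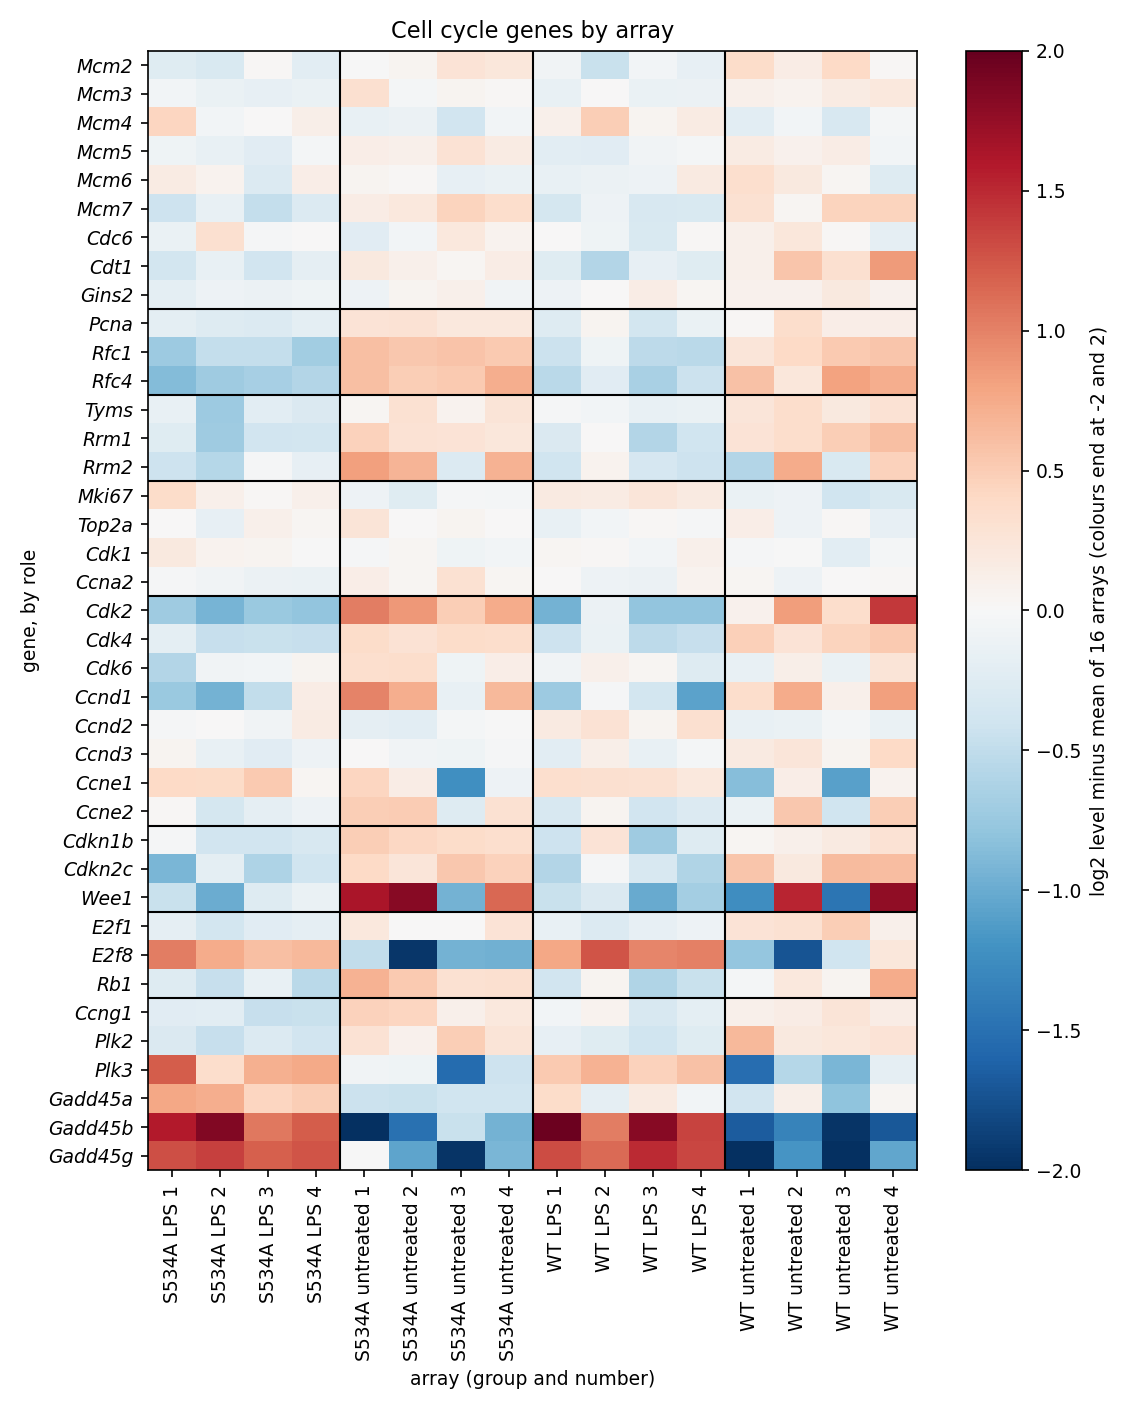
Heat map of the 39 tested genes (rows, grouped by role) in the 16 arrays (columns, grouped as S534A LPS, S534A untreated, WT LPS and WT untreated). Colour gives the log2 level minus the gene's mean over the 16 arrays, and Gadd45b and Gadd45g are high in all LPS-treated arrays while Wee1 splits the untreated arrays.

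**Figure D2:**
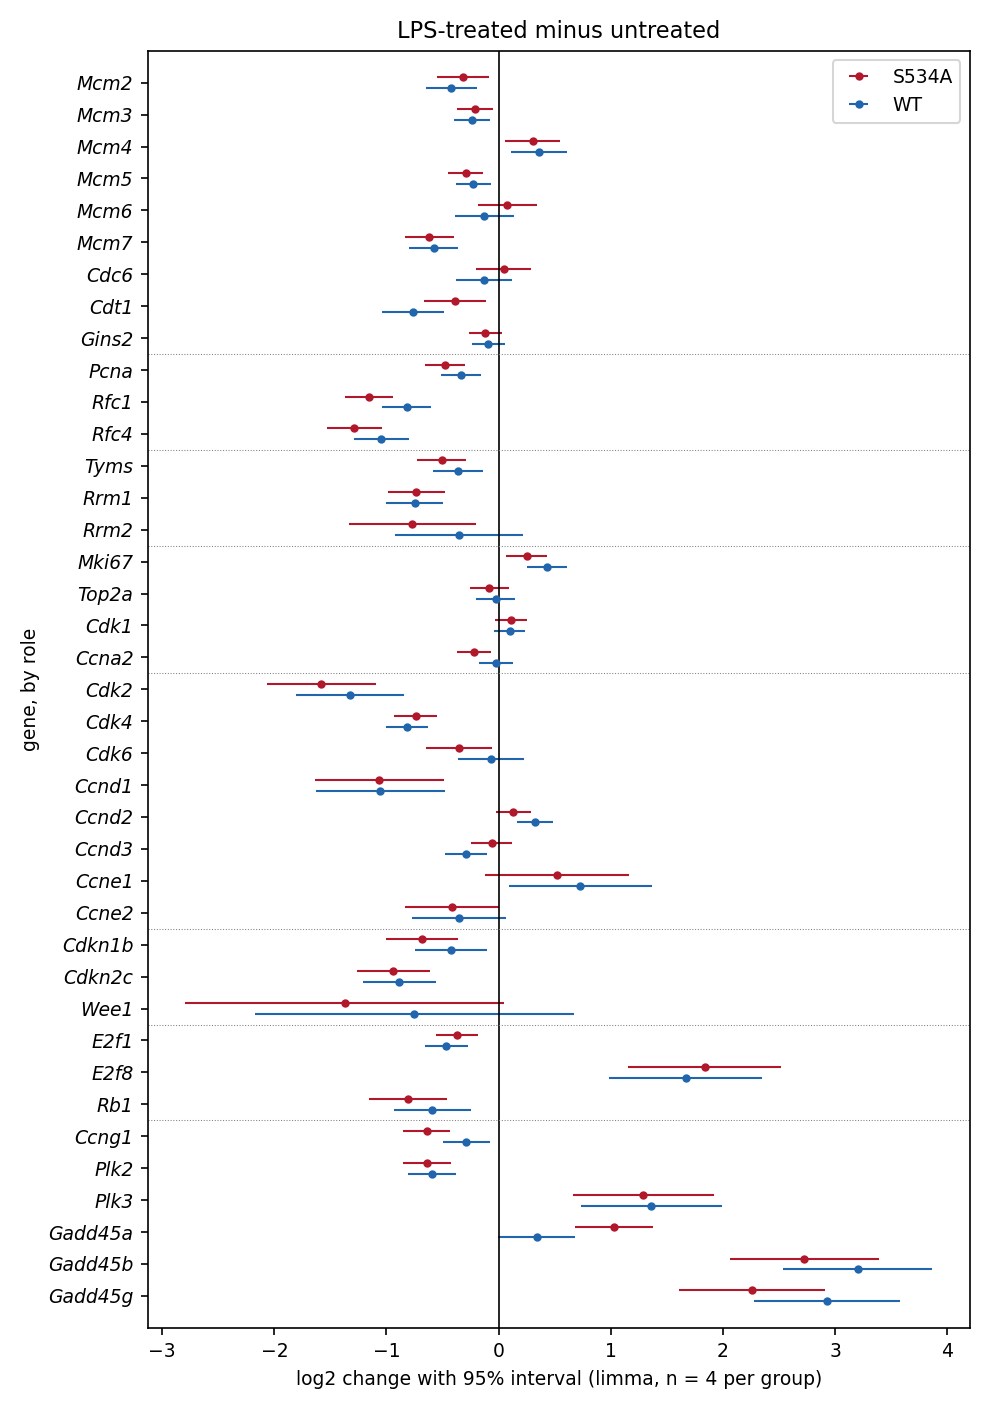
Log2 change after LPS (x axis) of the 39 genes (y axis, grouped by role) in S534A and in WT, with points for the limma estimate and bars for the 95% interval (n = 4 per group). Gadd45b has the largest rise, 2.73 in S534A and 3.20 in WT, and Cdk2 the lowest estimate, −1.58 in S534A and −1.33 in WT.

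Markers of other liver cells moved with LPS as well. All 12 neutrophil markers rose in both genotypes. Of 12 sinusoidal endothelial markers 10 fell and 2 rose in both genotypes, of 12 Kupffer cell markers 10 fell and 1 rose in both, and of 12 stellate cell and fibroblast markers 8 fell in both. The mean of the endothelial list ran from 8.29 to 8.62 in S534A LPS arrays and from 9.68 to 9.87 in untreated S534A arrays, and from 8.41 to 8.84 in WT LPS arrays and from 9.70 to 9.85 in untreated WT arrays. The Kupffer cell list ran from 7.98 to 8.36 in S534A LPS arrays and from 8.83 to 9.34 in untreated S534A arrays, and from 8.21 to 8.60 in WT LPS arrays and from 9.12 to 9.57 in untreated WT arrays. The stellate cell list ran from 8.10 to 8.30 in S534A LPS arrays and from 8.78 to 8.96 in untreated S534A arrays, and from 8.13 to 8.34 in WT LPS arrays and from 8.82 to 8.88 in untreated WT arrays. The neutrophil list ran from 7.80 to 8.16 in S534A LPS arrays and from 5.95 to 6.06 in untreated S534A arrays, and from 7.73 to 8.36 in WT LPS arrays and from 5.92 to 6.12 in untreated WT arrays. Of 9 hepatocyte markers 1 rose in S534A and 4 in WT, and none fell. Of 4 monocyte markers 3 rose and 1 fell in S534A and 2 rose and 1 fell in WT, and of 6 T and NK cell markers 1 rose in S534A, and 1 rose and 1 fell in WT. Of 5 B cell markers 3 fell in both genotypes, of 6 erythroid and platelet markers 5 rose in S534A, and 3 rose and 1 fell in WT, and of 5 cholangiocyte markers 1 rose and 1 fell in both. In whole liver, fewer cells of a type and less RNA per cell cannot be told apart, and the part of these cells in the changes below was not tested.

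E2F sites are a shared feature of replication gene promoters, and the matches in these promoters are shown. RefSeq promoter windows of GRCm38.p6, from 250 bases before to 50 bases after a gene's start, were available for 34 of the 42 genes in 38 windows. The motif was searched as TTTCCCGC, TTTCGCGC, TTTGGCGC or TTTGCCGC on both strands. A match was present in 9 of the 38 windows (23.7%) and in 2.26% of the 32851 windows of all genes. The 9 genes were Cdc6, Cdk1, Cdk2, Cdt1, Mcm3, Mcm5, Mcm6, Mcm7 and Orc1. Of these, Cdk2, Cdt1, Mcm3, Mcm5 and Mcm7 fell in both genotypes, Cdc6, Cdk1 and Mcm6 were called in neither, and Orc1 has no test. Other genes that fell in both, among them Rfc1, Rfc4, Rrm1 and Cdkn2c, had windows with no match. A link between matches and changes was not tested. A CCAAT box, searched as CCAAT, was present in 24 of the 38 windows (63.2%) and in 37.4% of all windows. A match describes the letters only. The stretches that hold the matches of the 8 tested genes are given 5′ to 3′ on the gene's strand, with E2F matches in capitals. Matches of opposite strand overlap in Mcm5 and Mcm6.
Cdc6 (chr11:98907997-98908036, plus strand): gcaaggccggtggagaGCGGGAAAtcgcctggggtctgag
Cdk1 (chr10:69353020-69353059, minus strand): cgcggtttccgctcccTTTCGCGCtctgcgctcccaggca
Cdk2 (chr10:128705168-128705207, minus strand): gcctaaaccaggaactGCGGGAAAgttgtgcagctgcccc
Cdt1 (chr8:122568031-122568064, plus strand): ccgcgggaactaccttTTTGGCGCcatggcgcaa
Mcm3 (chr1:20820263-20820309, minus strand): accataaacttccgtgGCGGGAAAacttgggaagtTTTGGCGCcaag
Mcm5 (chr8:75109340-75109383, plus strand): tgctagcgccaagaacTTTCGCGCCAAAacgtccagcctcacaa
Mcm6 (chr1:128359729-128359831, minus strand): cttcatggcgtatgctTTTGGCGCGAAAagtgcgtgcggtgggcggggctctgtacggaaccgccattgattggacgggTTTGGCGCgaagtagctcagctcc
Mcm7 (chr5:138171844-138172064, minus strand): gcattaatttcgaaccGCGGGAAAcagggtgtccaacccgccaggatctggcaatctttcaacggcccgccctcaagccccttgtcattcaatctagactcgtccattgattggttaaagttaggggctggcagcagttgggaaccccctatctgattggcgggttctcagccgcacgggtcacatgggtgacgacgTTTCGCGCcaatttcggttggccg

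Genes that load and activate the replicative helicase fell in 5 of 9 cases and rose in 1 case in each genotype. Of all genes tested, 31.2% fell and 14.2% rose in S534A, and 29.9% fell and 14.9% rose in WT, and the 1 rise is near that share. The same shares stand beside the counts of the other roles below, which hold few genes each and were not tested as sets. Mcm7, a subunit of the MCM ring, had 7.30, 7.57, 7.25 and 7.45 in S534A LPS livers, against 7.87, 7.93, 8.17 and 8.07 in untreated S534A livers. Mcm7 in WT had 7.37, 7.63, 7.41 and 7.42 after LPS and 8.04, 7.77, 8.17 and 8.18 without treatment. The groups were apart in both genotypes, with a change of −0.62 ± 0.10 in S534A (adjusted p = 9.71e-05) and −0.58 ± 0.10 in WT (adjusted p = 0.000184). Cdt1, the loading factor for MCM, had 6.44, 6.66, 6.42 and 6.64 in S534A LPS livers, against 7.01, 6.91, 6.85 and 6.96 in untreated S534A livers. In WT its values were 6.57, 6.23, 6.65 and 6.57 after LPS and 6.91, 7.36, 7.12 and 7.67 without treatment. Its change was −0.39 ± 0.13 in S534A (adjusted p = 0.0212) and −0.76 ± 0.13 in WT (adjusted p = 0.000134), again with no overlap. The S534A call of Cdt1 was lost without S534A LPS array 1 or 3 or untreated S534A array 1 (adjusted p 0.0543 to 0.0616).

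The other MCM subunits moved by less and not all in one direction. Mcm2 fell, with changes of −0.32 ± 0.11 in S534A and −0.42 ± 0.11 in WT, Mcm3 by −0.21 ± 0.08 and −0.24 ± 0.08, and Mcm5 by −0.29 ± 0.07 and −0.22 ± 0.07. Mcm3 was above the filter level in all 16 arrays but dim, at 5.67 to 6.16, below every array median, so the size of its changes is uncertain. Mcm4 had 7.11, 6.63, 6.69 and 6.80 in S534A LPS livers, against 6.53, 6.56, 6.29 and 6.63 in untreated S534A livers. Mcm4 in WT had 6.77, 7.17, 6.73 and 6.84 after LPS and 6.46, 6.62, 6.36 and 6.64 without treatment. It was the 1 MCM subunit to rise, by 0.30 ± 0.12 in S534A (adjusted p = 0.0448, groups overlapping) and 0.36 ± 0.12 in WT (adjusted p = 0.019), and both calls were lost with centred arrays. Mcm6 stood at 0.08 ± 0.12 in S534A and −0.13 ± 0.12 in WT (adjusted p = 0.647 and 0.462), and with centred arrays its S534A value turned to −0.02. The licensing ATPase Cdc6 stood at 0.04 ± 0.12 and −0.13 ± 0.12 (adjusted p = 0.788 and 0.41), and Gins2, a subunit of the GINS helicase cofactor, at −0.12 ± 0.07 and −0.09 ± 0.07 (adjusted p = 0.181 and 0.314). Cdc6 was also below every array median, at 5.63 to 6.24. Without the 3 untreated arrays with shifted clock genes, no call was left for Mcm2 (adjusted p = 0.0509 in S534A and 0.0912 in WT), Mcm3 (0.0595 and 0.0719) or Mcm4 (0.133 and 0.158), nor for Mcm5 in WT (0.172). Without these arrays the Mcm2 change was −0.27 in both genotypes. The Mcm3 change was −0.22 ± 0.09 in S534A and −0.24 ± 0.10 in WT, so its estimates stayed near those over all arrays and its standard errors grew. The Mcm4 change was 0.23 in S534A and 0.25 in WT, and the Mcm5 change in WT was −0.15.

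Leaving out a single array also ended several of these calls. The S534A call of Mcm2 was lost without S534A LPS array 1, 2 or 4 or untreated S534A array 3 or 4 (adjusted p 0.0533 to 0.0725). That of Mcm3 was lost without S534A LPS array 2, 3 or 4 or untreated S534A array 1 (0.0642 to 0.131), and without the last of these the Mcm3 change was −0.13. It also stood at 0.0553 with only the groups compared in the fit. The S534A call of Mcm4 was lost without S534A LPS array 1 or 4, untreated S534A array 1, 2 or 3, WT LPS array 1 or 4 or untreated WT array 1 (0.0511 to 0.159). Without S534A LPS array 1 the Mcm4 change was 0.20, and with no filter its adjusted p was 0.0529. In WT the Mcm4 call was lost without WT LPS array 2 or untreated WT array 3 (0.0665 and 0.0624), and that of Mcm5 without WT LPS array 1, untreated WT array 1 or with only the groups compared (0.0534 to 0.0651).

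All 3 genes of the sliding clamp and its loader fell in both genotypes, with lower estimates for the loader subunits than for the clamp. Rfc4, a subunit of the clamp loader RFC, had 6.71, 6.86, 6.92 and 6.99 in S534A LPS livers, against 8.17, 8.07, 8.09 and 8.29 in untreated S534A livers. Rfc4 in WT had 7.03, 7.34, 6.93 and 7.15 after LPS and 8.16, 7.80, 8.38 and 8.29 without treatment. No LPS-treated array reached the lowest untreated array of its genotype, and the change was −1.29 ± 0.12 in S534A (2.44-fold lower, adjusted p = 1.17e-07) and −1.05 ± 0.12 in WT (2.07-fold lower, adjusted p = 1.33e-06). Rfc1, the large subunit of the same complex, had 7.03, 7.28, 7.28 and 7.06 in S534A LPS livers, against 8.36, 8.29, 8.33 and 8.27 in untreated S534A livers. Its WT values were 7.33, 7.68, 7.23 and 7.22 after LPS and 8.0, 8.15, 8.29 and 8.31 without treatment. Rfc1 fell, with changes of −1.15 ± 0.10 in S534A (adjusted p = 8.61e-08) and −0.82 ± 0.10 in WT (adjusted p = 4.27e-06), with all groups apart. Pcna, the clamp that tethers DNA polymerase, fell, with changes of −0.48 ± 0.09 in S534A (adjusted p = 0.000187) and −0.34 ± 0.09 in WT (adjusted p = 0.00376), where WT LPS array 2, at 9.59, lay just above the lowest untreated WT array, at 9.57. A second Pcna probe set gave −0.50 in S534A and −0.33 in WT.

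The enzymes that make DNA precursors fell, with 3 of 3 called in S534A and 2 of 3 in WT. Rrm1, the large subunit of ribonucleotide reductase, had 7.24, 6.77, 7.10 and 7.10 in S534A LPS livers, against 7.94, 7.76, 7.75 and 7.70 in untreated S534A livers. Rrm1 in WT had 7.19, 7.48, 6.89 and 7.08 after LPS and 7.76, 7.83, 7.97 and 8.07 without treatment, and the groups were apart in both genotypes. Its change was −0.73 ± 0.12 in S534A (adjusted p = 8.11e-05) and −0.75 ± 0.12 in WT (adjusted p = 7.14e-05). Tyms, thymidylate synthase, fell, with changes of −0.51 ± 0.10 in S534A and −0.36 ± 0.10 in WT (adjusted p = 0.000702 and 0.00961). Rrm2, the small subunit of ribonucleotide reductase, had 6.80, 6.65, 7.19 and 7.05 in S534A LPS livers, against 8.03, 7.89, 6.93 and 7.91 in untreated S534A livers. Rrm2 in WT had 6.82, 7.28, 6.88 and 6.79 after LPS and 6.63, 7.96, 6.91 and 7.68 without treatment. The 3 untreated arrays with low clock scores were also the 3 lowest untreated arrays for Rrm2, at 6.63 to 6.93, and the 8 LPS-treated arrays ran from 6.65 to 7.28. Its change was −0.77 ± 0.27 in S534A (adjusted p = 0.027) and −0.35 ± 0.27 in WT (adjusted p = 0.33). Without those 3 arrays it was −1.02 ± 0.14 in S534A and −0.88 ± 0.16 in WT (adjusted p = 2.82e-05 and 0.000397). That fit leaves out 1 of 4 untreated S534A and 2 of 4 untreated WT arrays, and in WT clock score and LPS cannot be told apart in it. With the clock score as a covariate the Rrm2 change was −0.66 ± 0.12 and −0.34 ± 0.12 (adjusted p = 0.000203 and 0.0274). The S534A call was lost without S534A LPS array 1 or 2 or untreated S534A array 1, 2 or 4 (0.0603 to 0.0835).

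Of 4 tested genes that mark cells in S phase and mitosis, Mki67 rose in both genotypes and Ccna2 fell in S534A. Mki67, which encodes the proliferation antigen Ki-67, had 6.78, 6.50, 6.43 and 6.51 in S534A LPS livers, against 6.31, 6.17, 6.39 and 6.37 in untreated S534A livers. Mki67 in WT had 6.59, 6.58, 6.65 and 6.59 after LPS and 6.27, 6.31, 6.01 and 6.10 without treatment. All LPS-treated arrays were above the untreated arrays of their genotype, with a rise of 0.25 ± 0.09 in S534A (adjusted p = 0.0242) and 0.43 ± 0.09 in WT (adjusted p = 0.000517). The S534A call was lost with centred arrays, where the change was 0.15, and without S534A LPS array 1 or untreated S534A array 2 (0.0924 and 0.0841). Ccna2, cyclin A2 of S phase and mitosis, ranged from 5.31 to 5.74 over the 16 arrays. It was above the 30th percentile of the array, the level used as the filter, in 1 of 4 S534A LPS arrays and 4 of 4 untreated S534A arrays, and in 2 of 4 WT LPS arrays and 4 of 4 untreated WT arrays, so most of its levels after LPS were under the filter level and the size of its change is uncertain. It fell in S534A, with a change of −0.22 ± 0.07 (adjusted p = 0.0173, lost without untreated S534A array 3 at 0.0721, or without the 3 untreated arrays with shifted clock genes at 0.0832), and stood at −0.03 ± 0.07 in WT (adjusted p = 0.819). Cdk1, the mitotic kinase, stood at 0.11 ± 0.07 in S534A and 0.10 ± 0.07 in WT (adjusted p = 0.205 and 0.271). Top2a, the topoisomerase that untangles replicated chromosomes, was above the filter level in 14 of 16 arrays and stood at −0.08 ± 0.08 and −0.03 ± 0.08 (adjusted p = 0.437 and 0.847).

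Among G1 cyclins and their kinases, Cdk2, Cdk4 and Ccnd1 fell in both genotypes. Cdk2, the kinase partner of cyclins E and A, had 6.72, 6.51, 6.70 and 6.64 in S534A LPS livers, against 8.47, 8.31, 7.93 and 8.18 in untreated S534A livers. Cdk2 in WT had 6.50, 7.32, 6.65 and 6.66 after LPS and 7.52, 8.27, 7.79 and 8.86 without treatment. WT LPS array 2 was the highest treated array and still lay below the lowest untreated array, and the change was −1.58 ± 0.23 in S534A (2.99-fold lower, adjusted p = 2.37e-05) and −1.33 ± 0.23 in WT (2.51-fold lower, adjusted p = 0.000139). The 3 untreated arrays with shifted clock genes were the 3 lowest untreated arrays for Cdk2. Without them the change was −1.68 in S534A and −1.78 in WT. Cdk4, a partner of D-type cyclins, had 10.72, 10.45, 10.47 and 10.45 in S534A LPS livers, against 11.29, 11.20, 11.28 and 11.27 in untreated S534A livers. Its WT values were 10.50, 10.78, 10.39 and 10.45 after LPS and 11.39, 11.19, 11.36 and 11.44 without treatment. The groups were apart, and Cdk4 fell, with changes of −0.74 ± 0.09 in S534A (adjusted p = 3.28e-06) and −0.82 ± 0.09 in WT (adjusted p = 1.12e-06). Cdk6, the other D-cyclin kinase, stood at −0.35 ± 0.14 in S534A and −0.07 ± 0.14 in WT (adjusted p = 0.0506 and 0.745). The S534A value of Cdk6 passed under 9 of 26 alternatives, among them without S534A LPS array 4, untreated S534A array 3 or untreated WT array 4 (0.0198 to 0.0421).

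The 3 D-type cyclins differed among themselves. Ccnd1, the growth-factor-induced cyclin D1, had 8.99, 8.77, 9.23 and 9.87 in S534A LPS livers, against 10.71, 10.44, 9.58 and 10.37 in untreated S534A livers. Ccnd1 in WT had 8.99, 9.69, 9.35 and 8.66 after LPS and 10.08, 10.46, 9.83 and 10.55 without treatment. In S534A, LPS array 4 lay above untreated array 3, and in WT the groups were apart. Ccnd1 fell, with changes of −1.06 ± 0.27 in S534A (adjusted p = 0.00383) and −1.06 ± 0.27 in WT (adjusted p = 0.0041), or 2.09-fold and 2.08-fold. Its 3 lowest untreated arrays were those with shifted clock genes. Without them the change was −1.30 in S534A and −1.33 in WT. Ccnd2, cyclin D2, had 9.61, 9.72, 9.49 and 9.75 in WT LPS livers, against 9.29, 9.29, 9.39 and 9.31 in untreated WT livers, and rose there by 0.32 ± 0.08 (adjusted p = 0.00184). In S534A it stood at 0.13 ± 0.08 (adjusted p = 0.169). Ccnd3, cyclin D3, fell in WT, with a change of −0.29 ± 0.09 (adjusted p = 0.0108) with overlapping groups, and stood at −0.06 ± 0.09 in S534A (adjusted p = 0.601). The test of the difference between genotypes gave −0.19 ± 0.11 for Ccnd2 and 0.23 ± 0.12 for Ccnd3 (interaction, adjusted p = 0.951 each).

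Wee1 and the E-type cyclins varied widely among untreated livers. Wee1, the kinase that blocks entry into mitosis and a known output of the liver clock in mice, had 7.86, 7.31, 8.04 and 8.16 in S534A LPS livers, against 9.93, 10.13, 7.36 and 9.45 in untreated S534A livers. Wee1 in WT had 7.86, 8.0, 7.29 and 7.63 after LPS and 7.06, 9.82, 6.84 and 10.07 without treatment. The 3 untreated arrays with low clock scores lay at 6.84 to 7.36 and the other 5 untreated arrays at 9.45 to 10.13, with all 8 LPS-treated arrays between 7.29 and 8.16. Over all arrays the change was −1.37 ± 0.67 in S534A and −0.75 ± 0.67 in WT (adjusted p = 0.109 and 0.413). Without the 3 arrays it was −1.99 ± 0.21 and −2.25 ± 0.24 (adjusted p = 2.59e-06 and 3.45e-06). With the clock score as a covariate it was −1.08 ± 0.15 and −0.71 ± 0.15 (adjusted p = 1.20e-05 and 0.000648). Of the 6 clock genes in the score, 3 fell after LPS in S534A and 0 in WT (limma), and clock phase and LPS cannot be told apart from these values. In S534A, Wee1 also passed without untreated array 3 (0.0150), with array quality weights (0.0126) and with only the groups compared (0.0483).

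**Figure D3:**
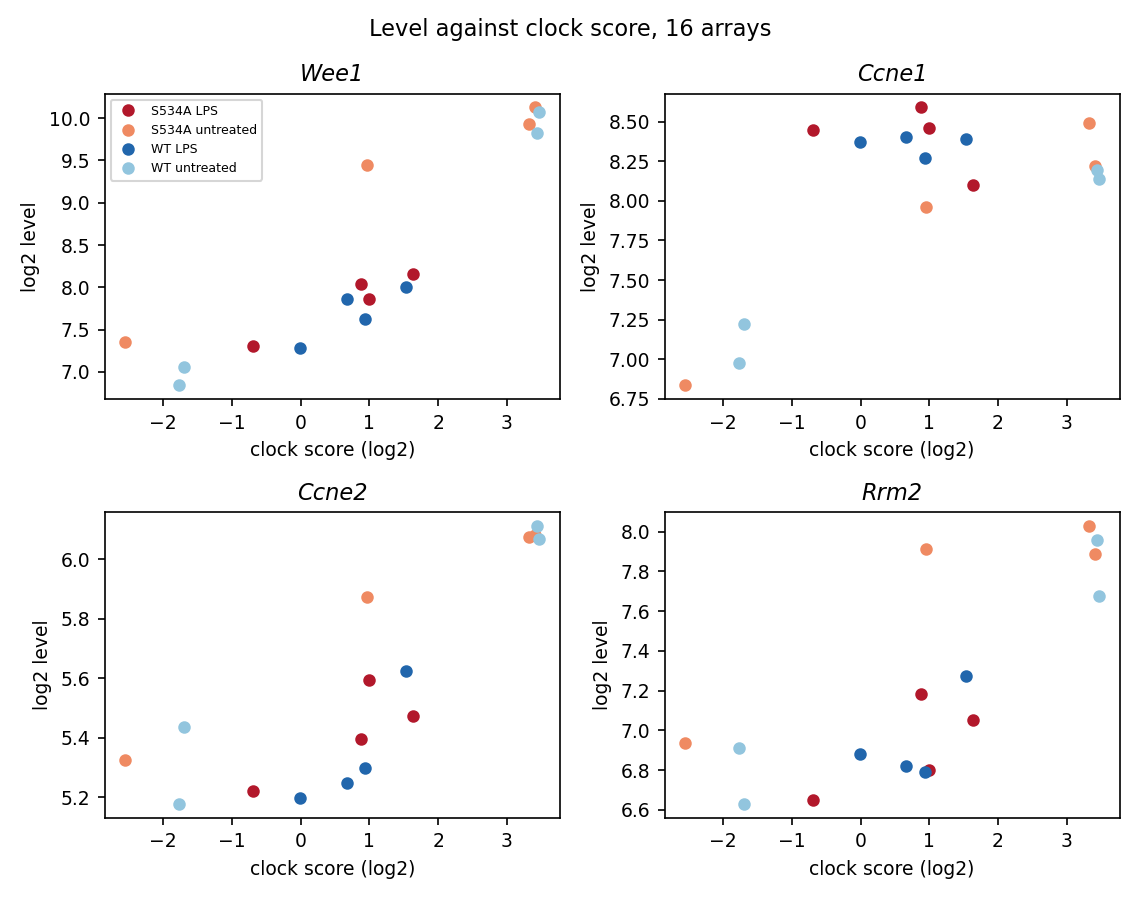
Log2 level (y axes) of Wee1, Ccne1, Ccne2 and Rrm2 against the clock score (x axes, log2) in 16 arrays, 1 point per array coloured by group. The 3 untreated arrays with negative scores lie below the other untreated arrays in each panel, with Wee1 at 6.84 to 7.36 against 9.45 to 10.13.

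Ccne1 and Ccne2, the E-type cyclins that activate Cdk2, followed the same division of untreated arrays. Ccne1 had 8.46, 8.45, 8.59 and 8.10 in S534A LPS livers, against 8.49, 8.22, 6.83 and 7.96 in untreated S534A livers. Ccne1 in WT had 8.40, 8.39, 8.37 and 8.27 after LPS and 7.22, 8.19, 6.98 and 8.14 without treatment. Untreated S534A array 3 and untreated WT arrays 1 and 3 were the 3 lowest of the 16 arrays. The change was 0.52 ± 0.30 in S534A and 0.73 ± 0.30 in WT (adjusted p = 0.177 and 0.061), and without these 3 arrays 0.17 ± 0.12 and 0.19 ± 0.14 (adjusted p = 0.273 and 0.289). With the clock score as a covariate it was 0.64 ± 0.15 and 0.74 ± 0.15 (adjusted p = 0.00142 and 0.000382), so whether Ccne1 is called as higher depends on how the clock genes are treated. The WT value passed as a rise under 7 alternatives, including without untreated S534A array 1 or 3 or untreated WT array 2 or 4 (0.0131 to 0.0482). Ccne2 was above the filter level in 9 of 16 arrays, namely 2 of 4 S534A LPS and 3 of 4 untreated S534A arrays, and 1 of 4 WT LPS and 3 of 4 untreated WT arrays, and the size of its changes is therefore uncertain. Ccne2 had 5.60, 5.22, 5.40 and 5.47 in S534A LPS livers, against 6.07, 6.08, 5.32 and 5.87 in untreated S534A livers. Its WT values were 5.25, 5.62, 5.20 and 5.30 after LPS and 5.44, 6.11, 5.18 and 6.07 without treatment. Its change was −0.42 ± 0.20 in S534A and −0.36 ± 0.20 in WT (adjusted p = 0.0999 and 0.167), and without the 3 arrays −0.59 ± 0.11 and −0.75 ± 0.13 (adjusted p = 0.000492 and 0.000232). With the clock score as a covariate it was −0.33 ± 0.08 and −0.35 ± 0.08 (adjusted p = 0.00172 and 0.00127). Leaving out untreated S534A array 3 alone gave Ccne2 −0.59 in S534A (0.0179), and leaving out untreated WT array 3 alone gave −0.53 in WT (0.0317).

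Both tested CDK inhibitors fell. Cdkn2c, which encodes p18 (INK4C), an inhibitor of Cdk4 and Cdk6, had 6.68, 7.40, 6.98 and 7.20 in S534A LPS livers, against 7.99, 7.83, 8.14 and 8.05 in untreated S534A livers. Cdkn2c in WT had 7.0, 7.57, 7.28 and 6.99 after LPS and 8.15, 7.79, 8.23 and 8.22 without treatment. The groups were apart in each genotype, with a change of −0.94 ± 0.15 in S534A (adjusted p = 8.08e-05) and −0.89 ± 0.15 in WT (adjusted p = 0.000146). Cdkn1b, which encodes p27, had 8.72, 8.36, 8.35 and 8.43 in S534A LPS livers, against 9.24, 9.16, 9.11 and 9.08 in untreated S534A livers. Its WT values were 8.33, 9.02, 8.03 and 8.49 after LPS and 8.78, 8.85, 8.92 and 9.03 without treatment, where WT LPS array 2 reached the untreated range. Cdkn1b fell, with changes of −0.68 ± 0.15 in S534A (adjusted p = 0.00119) and −0.42 ± 0.15 in WT (adjusted p = 0.0291). A dimmer Cdkn1b probe set gave −0.25 in S534A and −0.38 in WT. The WT call of Cdkn1b was lost without WT LPS array 1, 3 or 4 or untreated WT array 3 or 4, without the 3 untreated arrays with shifted clock genes, and with only the groups compared (0.0503 to 0.117). In these fits the WT change ran from −0.28 without WT LPS array 3 to −0.47 ± 0.20 without the 3 untreated arrays with shifted clock genes. The last of these estimates is no smaller than that over all arrays, and its standard error is larger.

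Of the E2F and retinoblastoma genes, E2f8 rose and E2f1 and Rb1 fell in both genotypes. E2f8, an atypical E2F that represses transcription, had 8.93, 8.65, 8.51 and 8.55 in S534A LPS livers, against 7.41, 5.97, 6.97 and 6.94 in untreated S534A livers. E2f8 in WT had 8.68, 9.16, 8.89 and 8.91 after LPS and 7.14, 6.19, 7.51 and 8.13 without treatment. The untreated arrays were widely spread, and all of them lay below the LPS-treated arrays. The rise was 1.84 ± 0.32 in S534A (3.57-fold, adjusted p = 0.000161) and 1.67 ± 0.32 in WT (3.18-fold, adjusted p = 0.000404). E2f1, a classical activator of S-phase genes, fell, with changes of −0.37 ± 0.09 in S534A and −0.47 ± 0.09 in WT (adjusted p = 0.00248 and 0.000361), with the groups apart in both. Rb1, the retinoblastoma protein that holds E2F inactive, had 7.41, 7.20, 7.51 and 7.13 in S534A LPS livers, against 8.36, 8.18, 7.97 and 7.99 in untreated S534A livers. Rb1 in WT had 7.28, 7.72, 7.06 and 7.22 after LPS and 7.63, 7.87, 7.72 and 8.41 without treatment, where WT LPS array 2 lay above untreated array 1. Rb1 fell, with changes of −0.81 ± 0.16 in S534A (adjusted p = 0.000586) and −0.59 ± 0.16 in WT (adjusted p = 0.007).

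The E2f8 promoter is shown because among the genes that rose it is the 1 whose available window holds a match to the kappa B consensus, the NF-kB binding motif, which was found in 3 of the 38 windows (7.89%) and 8.46% of all windows. Mcm7 and Rfc4, which fell, hold the other 2. Capitals mark, in order, a CCAAT box on the opposite strand, the kappa B match and, on the opposite strand, the CHR motif TTTGAA, which was present in 5 of the 38 windows (13.2%) and 17.9% of all windows. None of the 3 overlaps another.
E2f8 (chr7:48881547-48881846, minus strand): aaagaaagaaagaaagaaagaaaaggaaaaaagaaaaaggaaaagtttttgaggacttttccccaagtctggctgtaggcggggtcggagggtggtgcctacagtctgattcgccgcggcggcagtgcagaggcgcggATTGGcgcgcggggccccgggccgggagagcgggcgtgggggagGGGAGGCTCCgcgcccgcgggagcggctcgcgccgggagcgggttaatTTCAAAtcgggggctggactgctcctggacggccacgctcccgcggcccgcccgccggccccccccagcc

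Of the 6 stress and arrest genes, Plk3, Gadd45b and Gadd45g rose in both genotypes, Gadd45a rose in S534A, and Plk2 and Ccng1 fell in both. Gadd45b, a stress sensor of the Gadd45 family and a known NF-kB target, had 10.03, 10.30, 9.50 and 9.66 in S534A LPS livers, against 6.11, 6.96, 8.0 and 7.50 in untreated S534A livers. Gadd45b in WT had 10.41, 9.47, 10.27 and 9.79 after LPS and 6.79, 7.12, 6.49 and 6.74 without treatment. The lowest treated array lay well above the highest untreated array, and the rise was 2.73 ± 0.31 in S534A (6.62-fold, adjusted p = 1.95e-06) and 3.20 ± 0.31 in WT (9.21-fold, adjusted p = 3.17e-07). Gadd45g, another member of the family, had 11.75, 11.83, 11.66 and 11.71 in S534A LPS livers, against 10.45, 9.41, 8.50 and 9.54 in untreated S534A livers. Its WT values were 11.77, 11.59, 11.95 and 11.80 after LPS and 8.47, 9.28, 8.23 and 9.42 without treatment. LPS-treated arrays were close together and untreated arrays were spread, and Gadd45g rose by 2.26 ± 0.31 in S534A (4.79-fold, adjusted p = 1.26e-05) and 2.93 ± 0.31 in WT (7.6-fold, adjusted p = 7.32e-07). The 3 untreated arrays with shifted clock genes were its 3 lowest untreated arrays. Without them the rise was 1.94 in S534A and 2.43 in WT, and both calls stayed.

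Gadd45a, the third member and a known p53 target, had 8.53, 8.49, 8.19 and 8.25 in S534A LPS livers, against 7.32, 7.31, 7.36 and 7.37 in untreated S534A livers. Gadd45a in WT had 8.12, 7.58, 7.94 and 7.71 after LPS and 7.38, 7.87, 6.95 and 7.79 without treatment. The S534A groups were far apart and the WT groups overlapped. It rose by 1.03 ± 0.16 in S534A (2.04-fold, adjusted p = 6.44e-05) and stood at 0.34 ± 0.16 in WT (adjusted p = 0.11). The WT value passed with array quality weights (0.59, adjusted p = 0.00376) and without untreated WT array 2 (0.46, adjusted p = 0.0305) or 4 (0.44, adjusted p = 0.0487), and was 0.01 without the 3 untreated arrays with shifted clock genes (adjusted p = 0.978). Both promoters of the strongly induced Gadd45b and Gadd45g hold the E-box CACGTG, which was present in 7 of the 38 windows (18.4%) and 7.15% of all windows, and the CCAAT box. The other genes with the E-box were Cdk4, Cdkn2c, Rfc1 and Tyms, which fell in both genotypes, and Cdk6, called in neither. The Gadd45b and Gadd45g promoters are given with both motifs in capitals, and no 2 matches of different motifs overlap.
Gadd45b (chr10:80929841-80930140, plus strand): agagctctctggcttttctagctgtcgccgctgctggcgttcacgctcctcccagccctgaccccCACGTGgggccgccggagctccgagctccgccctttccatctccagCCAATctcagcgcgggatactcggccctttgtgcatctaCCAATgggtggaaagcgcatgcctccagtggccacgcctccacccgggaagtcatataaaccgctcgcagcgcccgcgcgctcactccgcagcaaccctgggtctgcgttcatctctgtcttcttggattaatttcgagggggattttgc
Gadd45g (chr13:51846425-51846724, plus strand): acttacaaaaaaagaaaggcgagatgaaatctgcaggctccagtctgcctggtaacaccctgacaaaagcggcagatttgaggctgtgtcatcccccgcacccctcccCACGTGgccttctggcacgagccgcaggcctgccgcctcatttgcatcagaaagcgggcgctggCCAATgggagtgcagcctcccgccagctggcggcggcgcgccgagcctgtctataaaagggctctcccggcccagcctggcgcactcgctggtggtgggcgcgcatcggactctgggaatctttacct

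Plk3, a stress-activated Polo-like kinase, had 12.21, 11.35, 11.70 and 11.76 in S534A LPS livers, against 10.91, 10.90, 9.45 and 10.58 in untreated S534A livers. Plk3 in WT had 11.51, 11.68, 11.45 and 11.58 after LPS and 9.47, 10.43, 10.07 and 10.81 without treatment. Untreated S534A array 3 and untreated WT arrays 1 and 3, with shifted clock genes, were the lowest. Treated and untreated arrays were apart. The rise was 1.29 ± 0.30 in S534A (2.45-fold, adjusted p = 0.00177) and 1.36 ± 0.30 in WT (2.57-fold, adjusted p = 0.00118). Without the 3 untreated arrays with shifted clock genes it was 0.95 in S534A and 0.94 in WT, and both calls stayed. Plk2, a Polo-like kinase active in G1, had 6.88, 6.72, 6.90 and 6.79 in S534A LPS livers, against 7.47, 7.27, 7.66 and 7.44 in untreated S534A livers. Its WT values were 7.01, 6.94, 6.78 and 6.93 after LPS and 7.82, 7.37, 7.40 and 7.45 without treatment. It moved the opposite way to Plk3, by −0.64 ± 0.10 in S534A (adjusted p = 6.41e-05) and −0.60 ± 0.10 in WT (adjusted p = 0.000122), with the groups apart. Ccng1, cyclin G1, a known p53 target, had 9.99, 10.01, 9.75 and 9.78 in S534A LPS livers, against 10.68, 10.65, 10.32 and 10.44 in untreated S534A livers. Ccng1 in WT had 10.17, 10.29, 9.89 and 10.03 after LPS and 10.33, 10.38, 10.47 and 10.37 without treatment. Ccng1 fell, with changes of −0.64 ± 0.10 in S534A (adjusted p = 4.75e-05) and −0.29 ± 0.10 in WT (adjusted p = 0.0244). The WT call was lost without WT LPS array 3 or 4, untreated WT array 3 or the 3 untreated arrays with shifted clock genes (0.0639 to 0.0910). In these fits the WT change of Ccng1 was −0.22 without WT LPS array 3 and −0.27 ± 0.12 without the 3 untreated arrays.

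**Figure D4:**
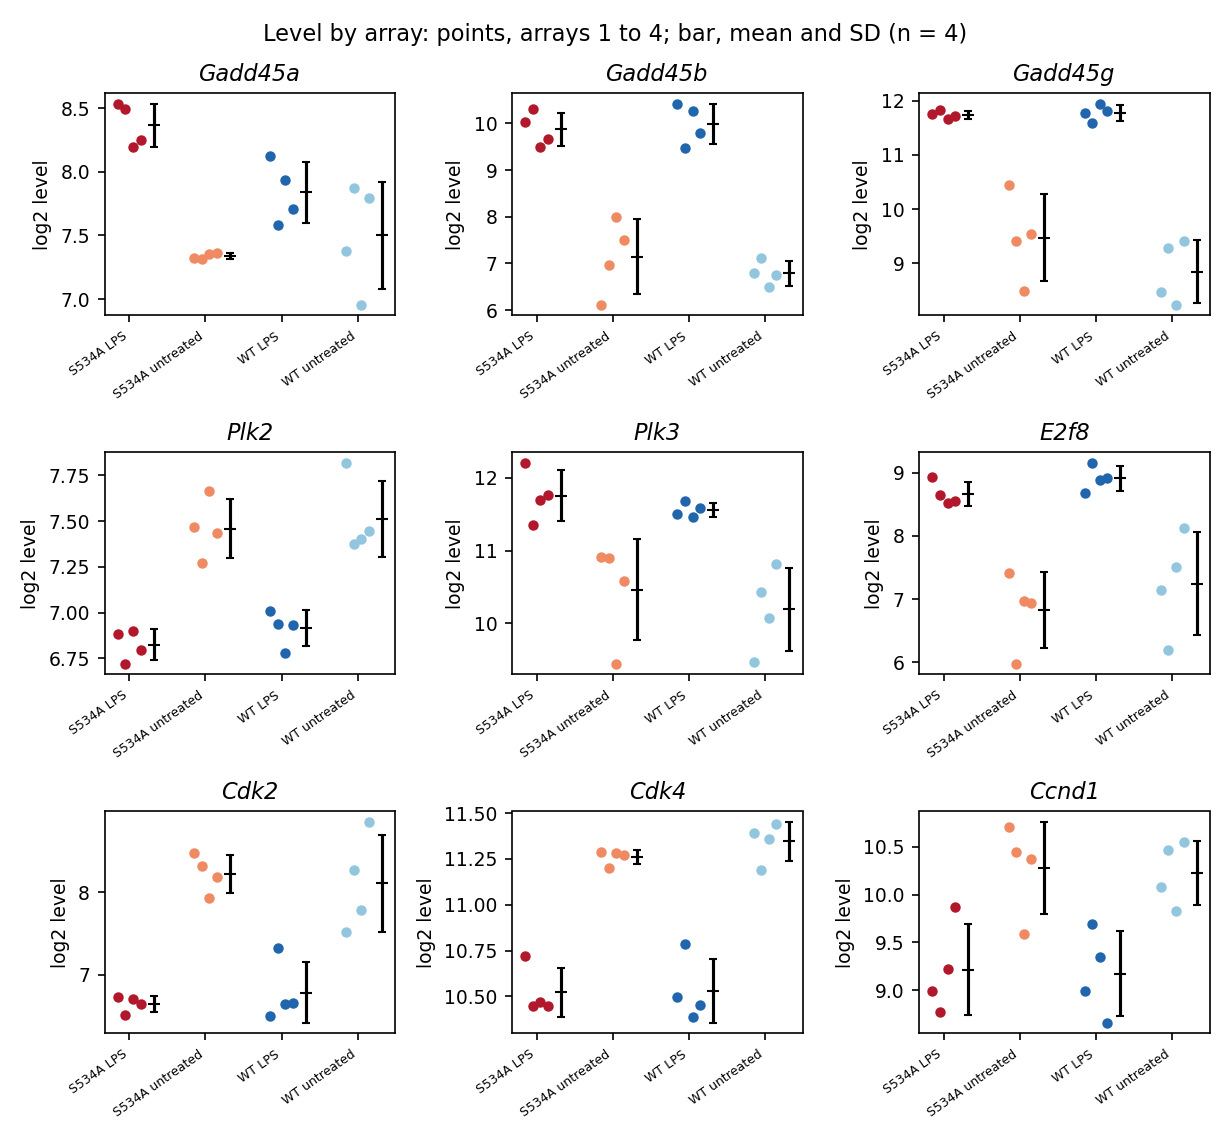
Log2 level (y axes) of 9 genes in each array of S534A LPS, S534A untreated, WT LPS and WT untreated livers (x axes), with points for arrays 1 to 4 and a bar for the mean and SD (n = 4). Gadd45b, Gadd45g, Plk3 and E2f8 are higher and Plk2, Cdk2 and Cdk4 lower in all LPS-treated arrays than in the untreated arrays of the same genotype.

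No cell cycle gene differed between S534A and WT livers after adjustment, with or without LPS. After LPS limma called 0 of 39, as it did 0% of all genes tested, and at an unadjusted p under 0.05 it gave 5 of 39, against 3% of all genes tested. These were Gadd45a (0.53 ± 0.16), Tyms (−0.25 ± 0.10), Ccng1 (−0.21 ± 0.10), Ccnd2 (−0.19 ± 0.08) and Gins2 (−0.15 ± 0.07), each with an adjusted p of 1.00. After LPS, Gadd45a was at 8.19 to 8.53 in S534A arrays and 7.58 to 8.12 in WT arrays, and the 95% interval of its difference ran from 0.18 to 0.88. For Gadd45b and Gadd45g the S534A minus WT difference after LPS was −0.12 (95% interval −0.78 to 0.55) and −0.04 (−0.69 to 0.61), so differences of either sign remained possible within these bounds.

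In untreated livers limma called 0 of 39, against 0.0126% of all genes tested in either direction (0.00629% higher and 0.00629% lower), and at an unadjusted p under 0.05 it gave 2 of 39, against 8.88% of all genes tested. Ccnd3 had 8.84, 8.76, 8.75 and 8.82 in untreated S534A livers, against 9.02, 9.09, 8.89 and 9.24 in untreated WT livers, a difference of −0.26 ± 0.09 (adjusted p = 0.345). Cdt1 differed by −0.33 ± 0.13 (adjusted p = 0.465), with overlapping groups. The clock-shifted arrays are 1 of 4 in untreated S534A and 2 of 4 in untreated WT. Wee1 differed by 0.77 ± 0.67 between the untreated groups (adjusted p = 0.847), with S534A arrays from 7.36 to 10.13 and WT arrays from 6.84 to 10.07.

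The LPS effect itself was compared between genotypes by the interaction, the LPS change in S534A minus that in WT. Limma called 0 of 39 and 0% of all genes tested, and at an unadjusted p under 0.05 it gave 3 of 39, against 4.82% of all genes tested. These were Gadd45a at 0.69 ± 0.23 (95% interval 0.20 to 1.18), Ccng1 at −0.35 ± 0.14 (−0.65 to −0.05) and Rfc1 at −0.33 ± 0.14 (−0.64 to −0.03), with an adjusted p of 0.951 for each. The LPS changes of Cdk2 differed by −0.25 (−0.94 to 0.43), of Ccnd1 by −0.01 (−0.82 to 0.81) and of E2f8 by 0.17 (−0.80 to 1.13). No alternative brought a cell cycle gene past the threshold in any of the 3 comparisons that involve genotype.

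**Figure D5:**
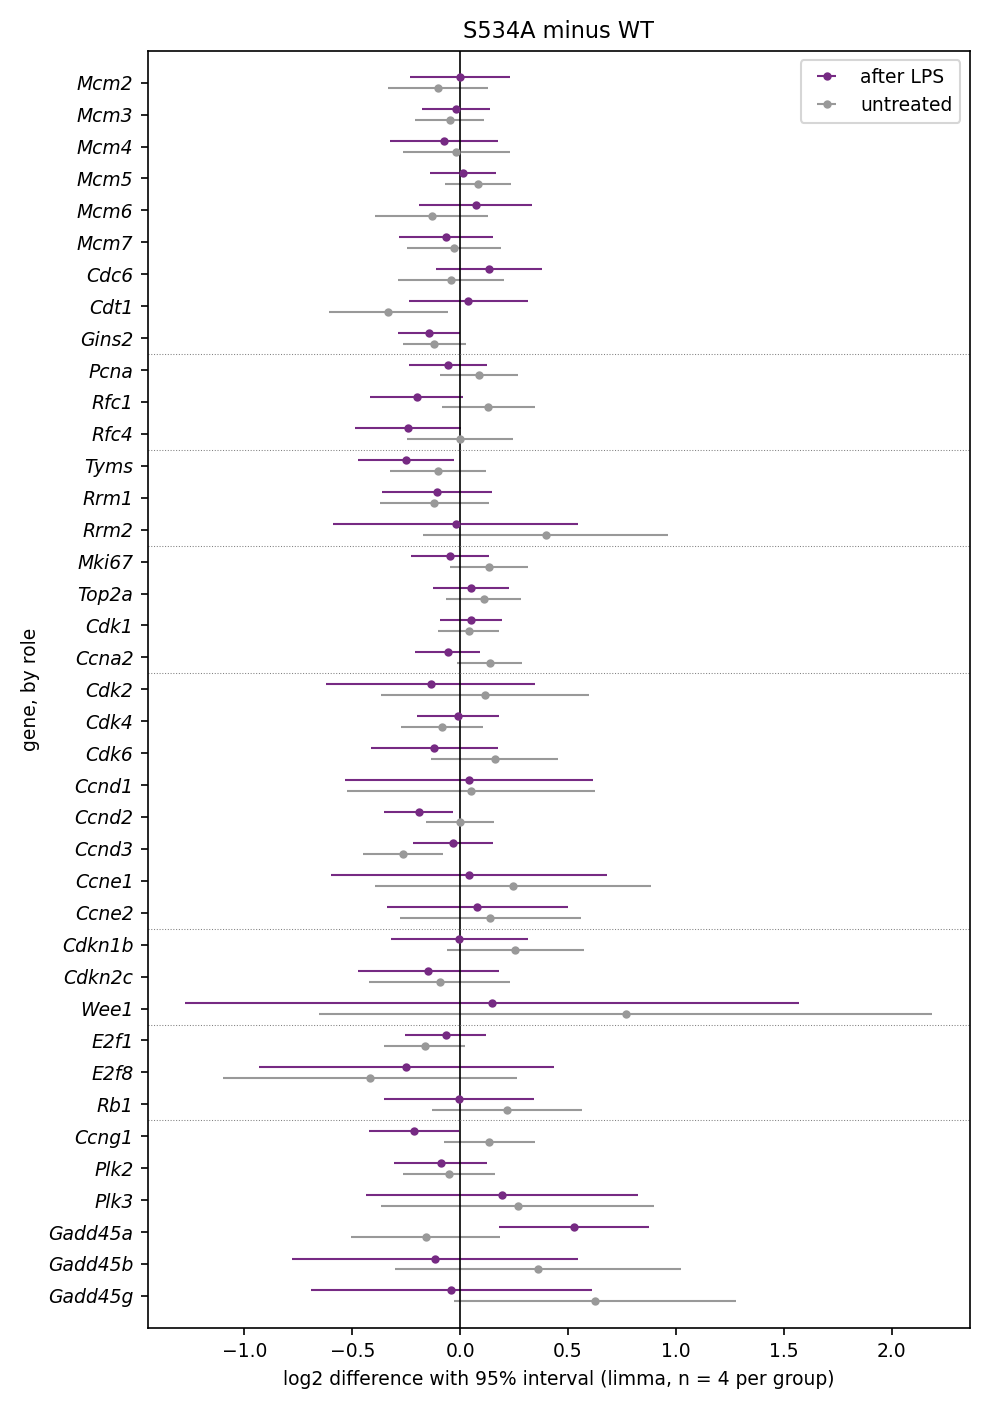
Log2 difference S534A minus WT (x axis) of the 39 genes (y axis, grouped by role), after LPS and in untreated livers, with points for the limma estimate and bars for the 95% interval (n = 4 per group). Most intervals include 0, Gadd45a after LPS lies from 0.18 to 0.88, and Wee1 has the widest intervals.

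Genes of 5 further lists are read against all genes tested, of which 31.2% fell and 14.2% rose in S534A and 29.9% fell and 14.9% rose in WT. Of 32 further replication factors 21 fell and 3 rose in S534A, and 20 fell and 3 rose in WT, with median changes of −0.40 and −0.36. Among them Rpa1, which coats single-stranded DNA, fell, with changes of −0.76 ± 0.08 in S534A and −0.67 ± 0.08 in WT, Gins4 by −0.81 ± 0.09 and −0.79 ± 0.09, the primase subunit Prim2 by −0.71 ± 0.08 and −0.62 ± 0.08, and the clamp loader subunit Rfc5 by −0.66 ± 0.08 and −0.73 ± 0.08. Of 19 genes of mitotic kinases, spindle and cytokinesis 4 fell and 0 rose in S534A, and 3 fell and 1 rose in WT, with medians of −0.02 and −0.05. Cenpa, the centromeric histone, fell, with changes of −0.92 ± 0.10 and −0.86 ± 0.10, and Mad2l1, a spindle checkpoint protein, by −0.89 ± 0.10 and −0.54 ± 0.10. Tpx2, a spindle assembly factor, rose in WT by 0.39 ± 0.09 and stood at 0.20 ± 0.09 in S534A (adjusted p = 0.0803).

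Among further cyclin, E2F and arrest genes some fell and others rose, and no list was tested as a set. Of 25 other cyclins, CDKs and regulators 9 fell and 3 rose in S534A, and 9 fell and 5 rose in WT. These counts are near the shares of all genes tested, 31.2% lower and 14.2% higher in S534A and 29.9% and 14.9% in WT. The CDK-binding subunit Cks2 fell, with changes of −2.17 ± 0.19 in S534A and −2.09 ± 0.19 in WT, Ccnf, cyclin F, by −1.01 ± 0.11 and −0.79 ± 0.11, and Ccnl1, cyclin L1 of RNA splicing, rose by 1.44 ± 0.21 and 1.48 ± 0.21. Of 14 other E2F and pocket protein genes 6 fell and 3 rose in S534A, and 5 fell and 2 rose in WT. The pocket protein genes moved in opposite directions, with Rbl1 (p107) higher, at 2.17 ± 0.16 in S534A and 2.13 ± 0.16 in WT and Rbl2 (p130) lower, at −0.97 ± 0.11 and −0.65 ± 0.11. Of 24 other growth arrest and p53 target genes 8 rose and 5 fell in S534A, and 9 rose and 5 fell in WT. The shares that rose are above the 14.2% of all genes tested in S534A and the 14.9% in WT. The shares that fell are below the 31.2% and 29.9% of all genes tested. The death receptor Fas rose by 2.70 ± 0.11 and 2.52 ± 0.11 and Trp53inp1 by 1.68 ± 0.23 and 2.43 ± 0.23, whereas the antiproliferative gene Tob1 fell, with changes of −2.85 ± 0.22 and −2.21 ± 0.22 and the stress gene Sesn1 by −1.83 ± 0.15 and −1.64 ± 0.15. All values named in this and the preceding paragraph passed the threshold in both genotypes, apart from Tpx2 in S534A.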

How the data were processed

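Liver RNA of 16 samples was hybridised to Affymetrix whole-transcript arrays after column purification and the Ambion WT Expression kit, per the labels' protocols. The deposited values are log2 intensities of 35556 probe sets, and RMA is the 1 tool named per the submitters' processing notes, with versions and settings not given in the sources used here. Of these probe sets 21789 carried a single symbol, 1621 several and 12146 none.

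A gene was tested on its single-symbol probe set of highest mean, if that was above the array's 30th percentile in at least 4 of 16 arrays, which left 15908 genes. limma 3.58.1 (R 4.3.3) fitted 4 group means over the 16 arrays, with 5 contrasts, empirical Bayes moderation (12 residual and 4.28 prior degrees of freedom) and Benjamini-Hochberg adjustment at 0.05, after a test on simulated data. Standard errors had a median of 0.099 over genes, 0.140 for the interaction, and precision is limited by how many arrays there are. No pair of arrays held identical values. The 42 genes and the pathway, marker and clock lists were chosen with earlier results of these data known. From each pathway list the genes named are among the 5 of lowest p past the threshold in WT whose WT groups did not overlap. Alternatives covered the filter, centring, array weights, trended moderation, clock genes, a replicate block, the groups fitted and each array left out. Promoter windows are RefSeq's of GRCm38.p6.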

Additional observations from a re-analysis of the deposited data

Results flagged for a closer look

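Of 156 sets of 4 arrays, 1 per gene and group, 9 held an array far from the other 3, and chance gives about 1 in 20 such sets. The ratio in brackets is the array's gap to the nearest other array over the group's range. In S534A LPS livers Cdk4 was 10.72 in array 1 and 10.45 to 10.47 in the others (0.916). In untreated S534A livers Rrm2 was 6.93 in array 3 and 7.89 to 8.03 in the others (0.871), Top2a was 5.75 in array 1 and 5.50 to 5.54 in the others (0.835), and Cdk4 was 11.20 in array 2 and 11.27 to 11.29 in the others (0.830). In WT LPS livers Mcm6 was 6.44 in array 4 and 6.11 to 6.15 in the others (0.885). In untreated WT livers array 3 stood apart for Gins2, at 7.25 with the others at 7.14 to 7.15 (0.933), for Cdk1, at 6.48 with the others at 6.65 to 6.68 (0.855), and for Ccnd2, at 9.39 with the others at 9.29 to 9.31 (0.862). Plk2 in untreated WT livers was 7.82 in array 1 and 7.37 to 7.45 in the others (0.833). The untreated S534A array 3 and untreated WT arrays 1 and 3 named here are the 3 with shifted clock genes. Their part in these values was not tested.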

How the results depend on the processing

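Over the LPS comparisons of the 39 genes, 1923 alternative values kept their side of the threshold, 57 lost the call and 38 gained one. The sign changed in 0 values of called genes and in 12 values of 7 genes that were not called, none past the threshold, among them Wee1 in WT at 0.04 with array quality weights, Cdc6 in S534A at −0.05 with centring and Top2a in WT at 0.08 without the 3 clock-shifted arrays. Without the 3 clock-shifted arrays 18 of the 39 fell in WT. With 1 array left out, 18 to 22 of the genes fell and 5 to 7 rose in S534A, and 18 to 20 fell and 6 to 9 rose in WT. Over all genes 4569 to 5155 fell and 1999 to 2505 rose in S534A, and 4325 to 5037 fell and 2189 to 2431 rose in WT. Array quality weights gave 3399 genes higher after LPS in S534A. Between untreated S534A and WT livers they gave 215 genes higher and 155 lower, trended moderation gave 2 and 2, centring gave 3 lower, and the groups compared alone gave 0 and 0. Without the 3 clock-shifted arrays 0 were higher. With 1 array left out the untreated comparison gave 0 to 4 higher and 0 to 6 lower. The interaction gave 2 genes higher and 1 lower with weights, and 0 to 2 higher and 0 to 1 lower with 1 array left out. The cause of these shifts was not tested.

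The replicate block gave 21 lower and 7 higher of the 39 genes in S534A and 20 lower and 7 higher in WT, and 0 genes higher and 0 lower between untreated genotypes. Of 16 same-numbered pairs 7 had deviations correlated above 0.1 (range −0.49 to 0.59). With correlations of both signs, these values do not decide whether the replicate numbers pair the samples.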
